A study of Mus musculus with 8 samples.

Results

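The transcriptional response of Jak2WT 32D cells to the combined loss of the glucose transporters GLUT1 and GLUT3 was examined in 4 of the 8 RNA-seq libraries of the study. These were the Jak2WT GLUT1/3 WT clones 1 and 3 and the Jak2WT GLUT1/3 dKO clones 1 and 3, so that n = 2 clones per group throughout. Genes were compared where at least 2 of these 4 libraries held a value of at least 1 FPKM (fragments scaled to gene length and to the library's total), which applied to 11202 of the 56748 genes listed. 32D is a mouse bone marrow cell line that grows in interleukin-3. According to the study's methods, all clones carried a murine Jak2 transgene, either wild type (Jak2WT) or with the activating V617F exchange (Jak2V617F), and Slc2a1 and Slc2a3 had been disrupted with CRISPR-Cas9 in the dKO clones. Before polyadenylated RNA was sequenced, cells of both groups were cultured for 24 h in RPMI medium holding 10% serum, interleukin-3 at 2 ng/ml, glutamine at 1 mM and glucose at 5 mM. Each library stems from 1 single-cell-derived clone, so the test measures the spread between clones, and a difference that a clone carried before editing cannot be told apart from an effect of the editing. The study's supplement lists a Slc2a1 deletion of the same size for all Jak2WT dKO clones. Whether these clones share a founder is not stated, and if so, their spread may understate that between independent edits.

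GLUT1, encoded by Slc2a1, and GLUT3, encoded by Slc2a3, carry glucose across the plasma membrane by facilitated diffusion, and hexokinase then traps it in the cell as glucose-6-phosphate. From there carbon enters glycolysis, the pentose phosphate pathway, glycogen and the hexosamine pathway, which supplies the sugar chains that proteins receive in the endoplasmic reticulum. Glycolytic genes are transcribed under the control of HIF-1, which binds the hypoxia response element, and glucose-6-phosphate itself is sensed by the transcription factor MondoA with its partner Mlx.

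The guides used for the knockout are shown with the genome sequence around them because they mark where each gene was cut. In capitals are the guide and its PAM, and the sequence is given on the strand of the guide. One of the guides against Slc2a1 matched GRCm39 at 1 site, chr4:118989341-118989360 on the forward strand, in exon 3 of transcript Slc2a1-201 and within its coding sequence. The guide against Slc2a3 also matched at 1 site, chr6:122716798-122716817 on the reverse strand, in exon 3 of transcript Slc2a3-201 and within its coding sequence. Exons are counted as in the GENCODE annotation, and the study's methods number the exon of Slc2a3 otherwise.
Slc2a1 guide and flanks: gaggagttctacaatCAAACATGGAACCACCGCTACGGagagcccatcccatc
Slc2a3 guide and flanks: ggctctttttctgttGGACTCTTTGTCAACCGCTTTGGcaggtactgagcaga

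Reads on genes, recovered from the FPKM values, numbered 37448557 and 16846011 in the GLUT1/3 WT clones and 28796460 and 48884329 in the dKO clones. On the log2 scale the squared correlation across genes was 0.978 between the WT clones, 0.977 between the dKO clones and 0.936 to 0.941 between clones of different groups. The cells are labelled as myeloblast-like, but Mpo, Elane and Ctsg, which encode the defining enzymes of primary granules, were at or below 0.203 FPKM in all 4 libraries. Of the primary granule genes, Prtn3 at 7.49 and 9.82 FPKM and Ctsc at 58.1 and 57.6 FPKM in the WT clones were present. None of the 8 T cell markers passed the filter, and of the 7 B cell markers Cd79b alone did, at 4.78 to 5.90 FPKM.

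To define the extent of the response, dKO and WT clones were compared for all 11202 genes with limma on log2(FPKM + 1). Of these, 928 (8.28%) were higher and 744 (6.64%) were lower in the dKO clones at an adjusted p under 0.05, and these shares are the background for the counts of list members. A difference of at least 1 on this scale was reached by 123 of the higher and 82 of the lower genes. The median log2 difference over all genes tested was 0.01, and the middle 50% of genes lay between -0.18 and 0.20. Both dKO clones lay above both WT clones for 34.4% of genes and below them for 32.7%, so that an absence of overlap between 2 and 2 clones was common. With 2 against 2 clones, permuting the samples of 1 gene exactly gives no two-sided p below 0.333, and the calls therefore rest on the spread that limma shares across genes. Through the dKO libraries alone 154 genes passed the filter, 59 of them called higher, and through the WT libraries alone 151 passed, 55 of them called lower.

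The number of calls depended on having both clones of each group. Without GLUT1/3 WT clone 1, WT clone 3, dKO clone 1 or dKO clone 3, 139, 166, 164 and 230 genes were called higher and 76, 90, 127 and 141 lower. With all libraries brought to the same summed FPKM, which lowered the median of all genes to -0.08, 720 genes were called higher and 1421 lower, whereas median ratio scaling called 997 higher and 861 lower. Limma voom on the recovered reads, which changes the values and their weights as well as the scaling, called 1035 higher and 1619 lower. Of the 197 called genes on a gene list or named in the text, 60 were called under each of the 19 alternative settings that tested them, and none of the 197 changed direction in any of these. Xaf1 and Xdh were tested in 18 of the settings, since a filter on the mean over the 4 libraries left them out. Of the 60, 9 had passed the filter through 1 group alone. None of the 197 had overlapping clones, so their direction could change only with the same summed FPKM, median ratio scaling or voom.

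Slc2a1 was read at 44.7 and 48.4 FPKM in the GLUT1/3 WT clones and 9.47 and 9.17 in the dKO clones, with no overlap and little spread within a group. Its log2 difference was -2.20 ± 0.15 (SE), adjusted p = 0.000695, a 4.997-fold lower mean, and it was called under all 19 alternatives. Slc2a3, the more abundant transporter per gene length in the WT clones, was read at 97.7 and 91.9 FPKM in the GLUT1/3 WT clones and 16.03 and 49.5 in the dKO clones. Both dKO clones were below both WT clones, but dKO clone 3 retained a higher level than dKO clone 1, and the log2 difference of -1.71 ± 0.49 (SE), adjusted p = 0.05598 did not pass. It passed without dKO clone 3 (-2.49, adjusted p = 0.0308), without either Jak2V617F dKO clone, with the same summed FPKM and with voom. Transcripts of a gene cut by Cas9 can persist, so these levels do not measure the loss of protein.

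Of the 12 Slc2a family members listed, 7 stayed below the filter. Slc2a8, which encodes an intracellular glucose transporter, was lower, with 3.78 and 4.095 FPKM in the GLUT1/3 WT clones and 2.33 and 2.61 in the dKO clones (log2 difference -0.51 ± 0.10 (SE), adjusted p = 0.0172). Slc2a9, which encodes a urate transporter, was higher, with 1.33 and 1.24 FPKM in the GLUT1/3 WT clones and 2.596 and 2.75 in the dKO clones (0.69 ± 0.12 (SE), adjusted p = 0.0129). Slc2a9 thus remained at a few FPKM, well below the level that Slc2a3 had in the WT clones. Both lost their call when any 1 of the 4 Jak2WT libraries was left out. Slc2a6 stood at 1.101 and 1.01 FPKM in the WT and 1.33 and 1.09 FPKM in the dKO clones and did not pass (0.11, adjusted p = 0.697). Slc16a1, the lactate transporter MCT1, was at 48.3 and 54.6 FPKM in the GLUT1/3 WT clones and 68.5 and 68.3 in the dKO clones and did not pass (0.41, adjusted p = 0.09398), and none of the other 3 tested lactate and pyruvate transport genes did.

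Glycolytic enzymes were lower. Of 20 listed, 16 were tested, and 10 of these passed as lower and 0 as higher, against 6.64% lower and 8.28% higher among all genes. The median log2 difference of the list was -0.53, and 14 of the 16 had both dKO clones below both WT clones, as had 32.7% of all genes. Pfkm, a subunit of phosphofructokinase, changed most, with 15.4 and 15.9 FPKM in the GLUT1/3 WT clones and 8.63 and 8.098 in the dKO clones (-0.83 ± 0.09 (SE), adjusted p = 0.00406), and was the member called under all 19 alternatives. Pgk1, phosphoglycerate kinase and among the most abundant messages, was at 1183 and 1216 FPKM in the GLUT1/3 WT clones and 816 and 657 in the dKO clones (-0.71 ± 0.17 (SE), adjusted p = 0.0347). Pkm, which makes pyruvate, was at 760.5 and 761 FPKM in the GLUT1/3 WT clones and 516 and 436 in the dKO clones (-0.68 ± 0.15 (SE), adjusted p = 0.0248). Hk2, the inducible hexokinase, was at 59.8 and 59.1 FPKM in the GLUT1/3 WT clones and 41.4 and 44.8 in the dKO clones (-0.46 ± 0.10 (SE), adjusted p = 0.0257). Pgam1, Tpi1, Eno1, Pfkl, Gpi1 and Hk1 also passed, with log2 differences from -0.72 for Pgam1 to -0.45 for Hk1. Ldha, which regenerates NAD+ by forming lactate (-0.56, adjusted p = 0.05399), and Aldoa, aldolase (-0.50, adjusted p = 0.0518), missed the threshold although their clones did not overlap. Gapdh is not interpreted, since many pseudogenes share its sequence. Without WT clone 1, WT clone 3, dKO clone 1 and dKO clone 3, the lower calls of the list numbered 1, 1, 2 and 1, and 13 with the same summed FPKM.

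**Figure D1:**
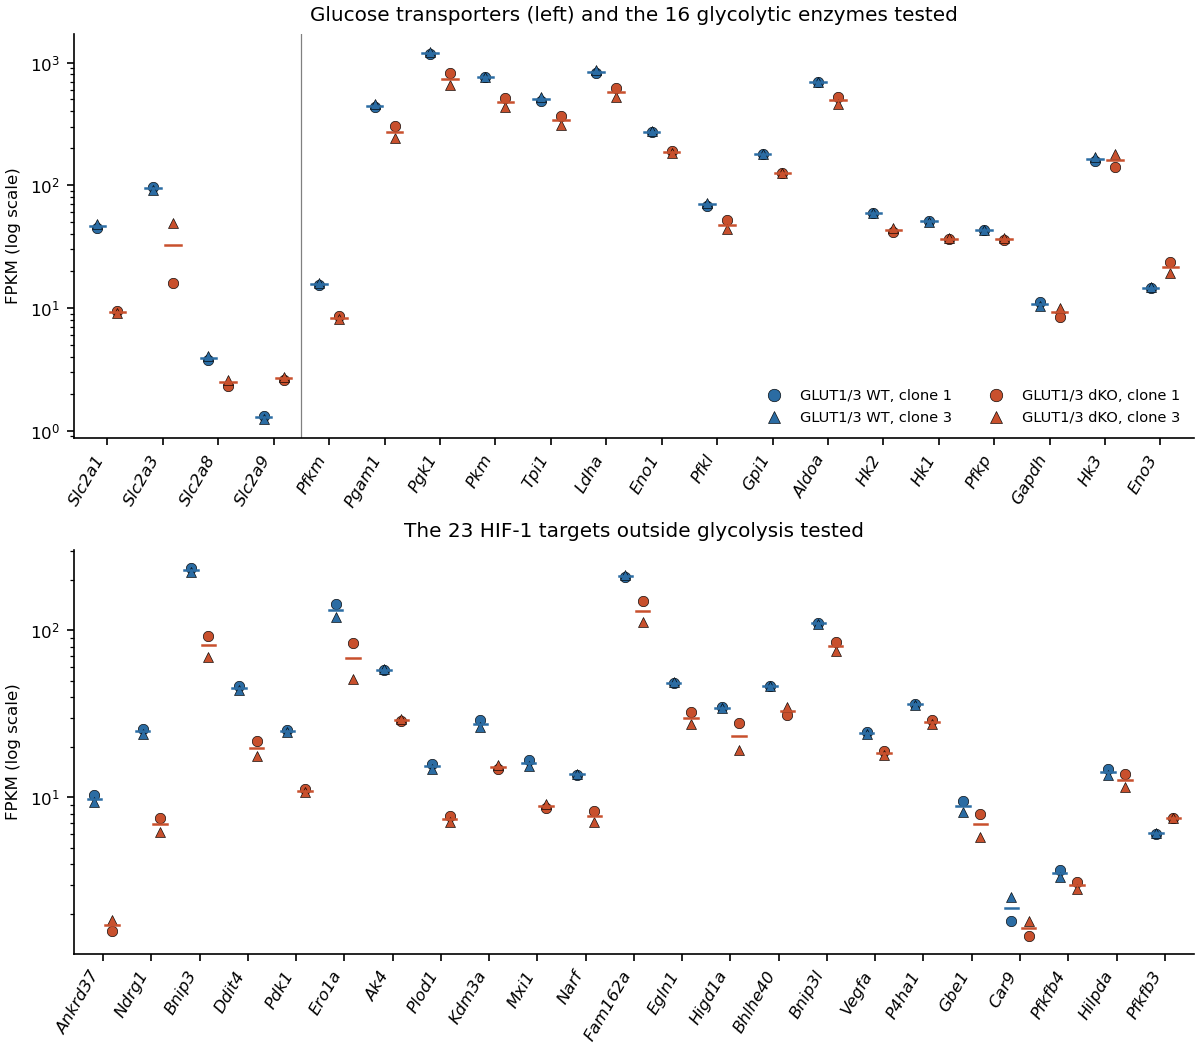
FPKM on a log scale of Slc2a transporters and the 16 glycolytic enzymes tested (top) and of the 23 HIF-1 targets outside glycolysis tested (bottom) in the 2 GLUT1/3 WT clones (blue) and the 2 dKO clones (red) of the Jak2WT background. Circles are clone 1, triangles clone 3 and bars the mean of both. Slc2a1 fell to 9.17 to 9.47 FPKM, the dKO clones of Slc2a3 lie apart from each other, and 14 of the 16 glycolytic enzymes lie below both WT clones.

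HIF-1 targets outside glycolysis followed the same direction. Of 27 listed, 23 were tested and 15 were called lower and 0 higher, against 6.64% lower and 8.28% higher among all genes. The median log2 difference was -0.70. Ankrd37, an ankyrin repeat gene induced in hypoxia, was at 10.3 and 9.33 FPKM in the GLUT1/3 WT clones and 1.59 and 1.83 in the dKO clones (-1.99 ± 0.12 (SE), adjusted p = 0.000428). Bnip3, a receptor for the removal of mitochondria, was at 236 and 223 FPKM in the GLUT1/3 WT clones and 92.8 and 69.7 in the dKO clones (-1.50 ± 0.16 (SE), adjusted p = 0.00370). Ndrg1 was at 25.7 and 24.1 FPKM in the GLUT1/3 WT clones and 7.57 and 6.22 in the dKO clones (-1.72 ± 0.19 (SE), adjusted p = 0.00404). Ddit4, an inhibitor of the kinase complex mTORC1, was at 46.5 and 44.2 FPKM in the GLUT1/3 WT clones and 21.7 and 17.8 in the dKO clones (-1.16 ± 0.12 (SE), adjusted p = 0.00314). Pdk1, the kinase that switches off pyruvate dehydrogenase, was at 25.3 and 24.6 FPKM in the GLUT1/3 WT clones and 11.3 and 10.7 in the dKO clones (-1.11 ± 0.09 (SE), adjusted p = 0.00142). These 5 genes and Ak4, Plod1, Kdm3a and Mxi1 were called under all 19 alternatives. Egln1, the prolyl hydroxylase that marks HIF-1 for degradation, was lower too (-0.68 ± 0.14 (SE), adjusted p = 0.0208), as was Vegfa, the vascular growth factor (-0.38 ± 0.10 (SE), adjusted p = 0.0397). Ero1a, Narf, Fam162a and Bnip3l completed the called members. The count without WT clone 1, WT clone 3, dKO clone 1 and dKO clone 3 was 9, 9, 11 and 10.

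The core of the hypoxia response element, ACGTG on either strand, was searched in RefSeq promoter windows of GRCm38.p6 that reach from 250 bases before to 50 after a gene's start. It occurred in 6447 (19.6%) of all 32851 windows. The 16 glycolytic enzymes tested had 26 windows, of which 12 (46.2%) held the core. Of the HIF-1 targets outside glycolysis, 20 of 23 had a window, and 16 of their 31 windows (51.6%) held it. The 200 bases before the start of Pgk1, chrX:106186900-106187099 on the forward strand, are shown with both cores in capitals, since this gene was lower and its promoter holds a classical element. A match describes letters, not binding. Both lists were gathered from known genes, so their shares say nothing about the response in these data.
Pgk1: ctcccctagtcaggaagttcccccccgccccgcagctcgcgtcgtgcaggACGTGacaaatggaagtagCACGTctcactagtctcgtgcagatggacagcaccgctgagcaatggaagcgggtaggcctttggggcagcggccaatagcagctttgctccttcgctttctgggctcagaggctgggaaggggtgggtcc

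Txnip, an arrestin that removes glucose transporters from the cell surface and whose gene is switched on by MondoA and Mlx when glucose-6-phosphate is plentiful, was among the most reduced genes. It was read at 54.4 and 61.98 FPKM in the GLUT1/3 WT clones and 10.3 and 16.2 in the dKO clones, with a log2 difference of -2.08 ± 0.19 (SE), adjusted p = 0.00215, and was called under all 19 alternatives. Mlx was slightly higher (12.96 and 13.6 against 18.3 and 17.7 FPKM, 0.41 ± 0.08 (SE), adjusted p = 0.0174). Mlxip, which encodes MondoA, did not pass (-0.10, adjusted p = 0.604), and Mlxipl stayed below the filter. The E-box CACGTG, the unit of the elements that MondoA and Mlx bind, contains the hypoxia core and occurred in 7.15% of all windows. Txnip, Mlx and Mlxip had 1 window each, and that of Mlx held the E-box whereas those of Txnip and Mlxip did not, which says only that these letters are not in these windows. In the hexosamine pathway Oga, the enzyme that removes O-GlcNAc from proteins, was at 43.1 and 40.9 FPKM in the GLUT1/3 WT clones and 13.8 and 14.9 in the dKO clones (-1.49 ± 0.14 (SE), adjusted p = 0.00234). Gfpt1, the enzyme that opens the pathway, and Uap1, which makes UDP-GlcNAc, were higher by 0.49 ± 0.08 (SE, adjusted p = 0.0128) and 0.47 ± 0.11 (SE, adjusted p = 0.0325). When any 1 of the 4 Jak2WT libraries was left out these 2 calls were lost, whereas that of Oga was kept. Gys1, muscle-type glycogen synthase, was at 36.2 and 32.6 FPKM in the GLUT1/3 WT clones and 16.3 and 15.3 in the dKO clones (-1.08 ± 0.12 (SE), adjusted p = 0.00380). Pgm1, which connects glucose-6-phosphate with glycogen, was at 70.7 and 71.9 FPKM in the GLUT1/3 WT clones and 35.6 and 33.2 in the dKO clones (-1.03 ± 0.10 (SE), adjusted p = 0.00234), and both were called under all 19 alternatives. Of the 7 pentose phosphate enzymes Pgd alone was called, as lower (-0.33, adjusted p = 0.0356). The calls of Pgd and Mlx were lost when any 1 of the 4 Jak2WT libraries was left out.

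Most mitochondrial genes did not pass. Among 73 nuclear-encoded subunits of oxidative phosphorylation 1 was called higher and 3 lower, against 8.28% and 6.64% of all genes, with a median log2 difference of -0.10, but with the same summed FPKM 21 were called lower and with voom 17. Without WT clone 1, WT clone 3, dKO clone 1 and dKO clone 3 the lower calls numbered 0, 1, 1 and 1. The largest of these differences was that of Ndufv3, a subunit of complex I (23.9 and 22.5 against 12.1 and 12.6 FPKM, -0.86 ± 0.11 (SE), adjusted p = 0.00607). Of the 13 genes of the mitochondrial genome 3 were called higher, mt-Co3, mt-Atp8 and mt-Nd6. There were 0, 0, 1 and 1 calls without WT clone 1, WT clone 3, dKO clone 1 and dKO clone 3, and reads from nuclear copies of mitochondrial genes make these values uncertain. Of 19 tricarboxylic acid cycle enzymes 3 were called lower, which became 8 with the same summed FPKM and 0, 0, 1 and 1 with the same libraries left out. They included Idh1, the cytosolic NADP-dependent isocitrate dehydrogenase (12.7 and 12.8 against 6.92 and 5.22 FPKM, -0.97 ± 0.13 (SE), adjusted p = 0.00691) and Sucla2 (-0.36). Beside Pdk1, the pyruvate dehydrogenase subunit gene Dlat was lower (-0.49, adjusted p = 0.0263). Of 17 genes of mitochondrial fatty acid oxidation Acads was called, as lower (-0.34, adjusted p = 0.0359), and 6 were with the same summed FPKM. The calls of Dlat and Acads were lost when any 1 of the 4 Jak2WT libraries was left out.

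Genes of lipid synthesis were lower in part. Of 13 fatty acid synthesis genes tested 5 were lower and 1 higher, against 6.64% and 8.28% of all genes, with a median of -0.30. With the same summed FPKM, with voom and with the 4 Jak2WT libraries fitted alone, 7, 8 and 6 were lower. Scd2, a stearoyl-CoA desaturase, was at 347 and 328 FPKM in the GLUT1/3 WT clones and 121 and 124 in the dKO clones (-1.46 ± 0.09 (SE), adjusted p = 0.000564). The desaturases Fads1 and Fads2 were at 87.5 and 91.01 against 52.5 and 53.5 FPKM (-0.74 ± 0.09 (SE), adjusted p = 0.00492) and 120.1 and 123 against 69.5 and 74.4 FPKM (-0.75 ± 0.12 (SE), adjusted p = 0.00954). Acss2, which makes acetyl-CoA from acetate (-0.51, adjusted p = 0.03499), and the regulator Srebf1 (-0.44, adjusted p = 0.0276) were lower as well. Acacb, a mitochondrial acetyl-CoA carboxylase, was the higher member (0.52, adjusted p = 0.0174), a call lost without a filter and when any 1 of the 4 Jak2WT libraries was left out. Of 22 genes of cholesterol synthesis and uptake 7 were lower and 0 higher, against 6.64% and 8.28% of all genes, with a median of -0.34. With the same summed FPKM, with voom and with the 4 Jak2WT libraries fitted alone, 12, 12 and 14 were lower. The kinases Pmvk (16.1 and 14.7 against 7.42 and 7.62 FPKM, -0.95 ± 0.13 (SE), adjusted p = 0.00672) and Mvk (7.91 and 9.502 against 5.22 and 4.92 FPKM, -0.67 ± 0.12 (SE), adjusted p = 0.0129) and the demethylase Cyp51 (-0.58 ± 0.12 (SE), adjusted p = 0.0215) changed most, and Nsdhl, Sqle, Srebf2 and Lss completed the calls. Without WT clone 1, WT clone 3, dKO clone 1 and dKO clone 3, the calls among the cholesterol genes numbered 1, 1, 1 and 1, and those lower among the fatty acid synthesis genes 2, 2, 2 and 3.

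**Figure D2:**
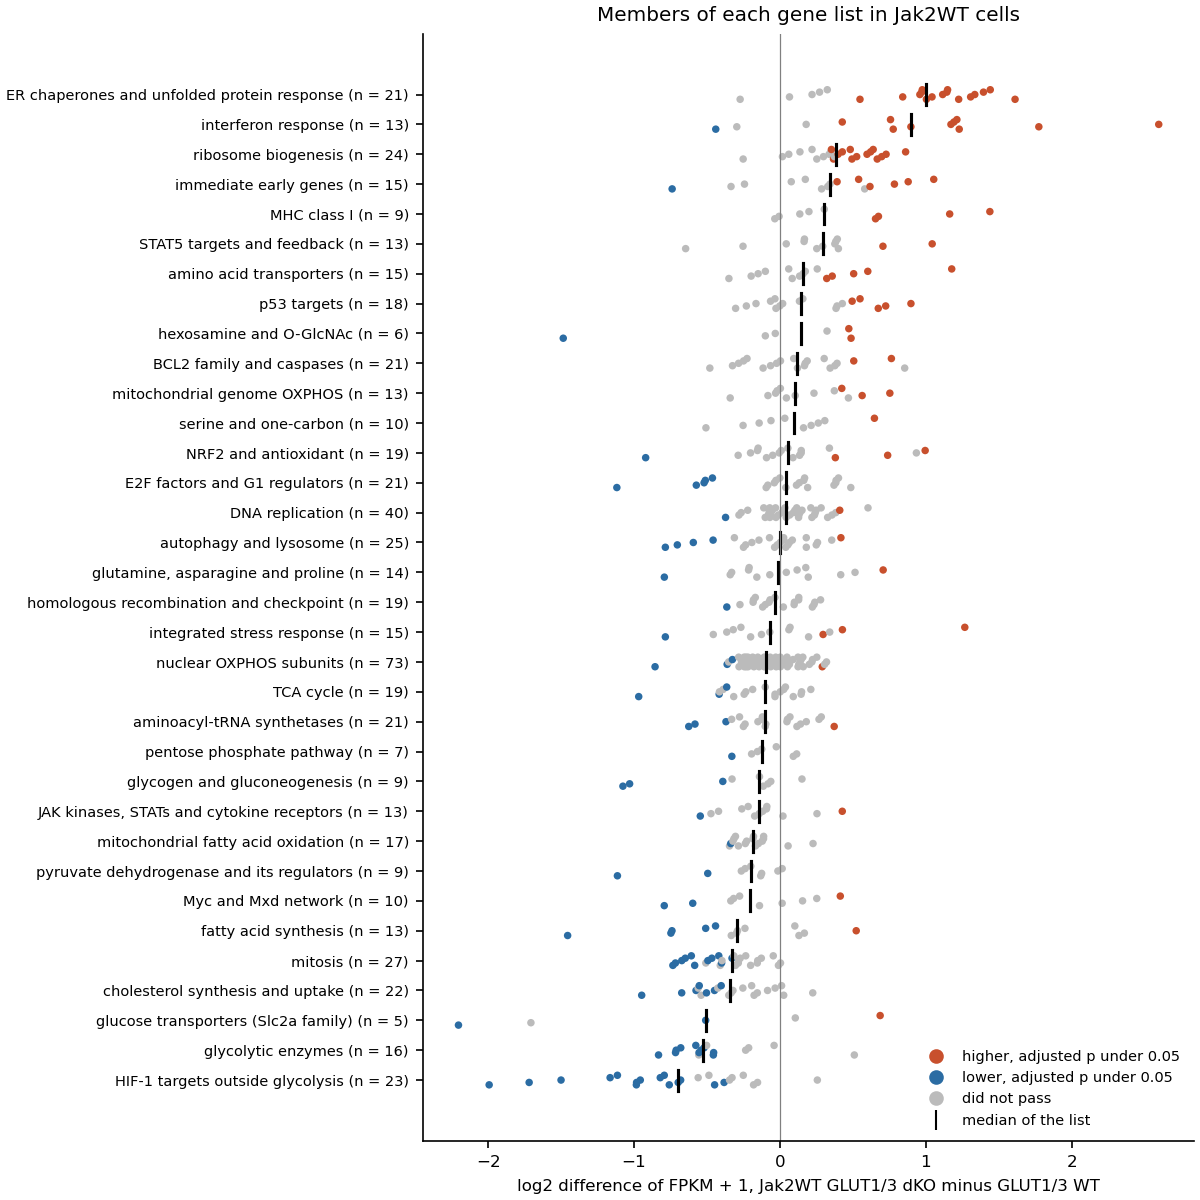
Log2 difference of FPKM + 1 between the dKO and the WT clones of the Jak2WT background for each tested member of the lists with at least 5 tested members. Red and blue points passed as higher and lower, grey points did not pass, and black bars are the medians, which among these lists range from -0.70 for HIF-1 targets outside glycolysis to 1.00 for endoplasmic reticulum chaperones and the unfolded protein response. Lineage markers are not drawn.

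Amino acid transporters were higher where they changed. Of 15 tested, 5 were called higher and 0 lower, against 8.28% and 6.64% of all genes. Slc43a1, a leucine transporter, was at 5.098 and 5.19 FPKM in the GLUT1/3 WT clones and 11.9 and 13.98 in the dKO clones (1.18 ± 0.10 (SE), adjusted p = 0.00206) and was called under all 19 alternatives. Slc38a2, a sodium-coupled neutral amino acid transporter, was at 34.7 and 33.2 FPKM in the GLUT1/3 WT clones and 51.1 and 53.04 in the dKO clones (0.60 ± 0.11 (SE), adjusted p = 0.01505). Slc1a5, through which many cells take up glutamine, was at 26.2 and 27.5 FPKM in the GLUT1/3 WT clones and 39.001 and 38.1 in the dKO clones (0.51 ± 0.08 (SE), adjusted p = 0.0104). The cationic amino acid transporter Slc7a1 (0.36 ± 0.07 (SE), adjusted p = 0.0185) and Slc7a6 (0.32 ± 0.08 (SE), adjusted p = 0.0336) were higher to a smaller degree. The list had 1, 1, 1 and 1 calls without WT clone 1, WT clone 3, dKO clone 1 and dKO clone 3. Of the enzymes, Ass1, which begins the synthesis of arginine from citrulline, was one of the 10 most raised called genes, with predicted models and pseudogenes left out. It was at 1.496 and 1.77 FPKM in the GLUT1/3 WT clones and 13.97 and 11.6 in the dKO clones (2.39 ± 0.11 (SE), adjusted p = 0.000428). Oat, ornithine aminotransferase, was higher (44.7 and 49.6 against 75.9 and 79.2 FPKM, 0.71 ± 0.11 (SE), adjusted p = 0.00938) and Gpt2, mitochondrial alanine aminotransferase, was lower (24.4 and 23.6 against 13.996 and 12.9 FPKM, -0.79 ± 0.13 (SE), adjusted p = 0.0105). Shmt1, the cytosolic serine hydroxymethyltransferase, was the called member of 10 serine and one-carbon genes (19.4 and 22.6 against 31.97 and 34.7 FPKM, 0.65 ± 0.11 (SE), adjusted p = 0.0111). The call of Ass1 was kept under all 19 alternatives, that of Gpt2 was lost when any 1 of the 4 Jak2WT libraries was left out, and those of Oat and Shmt1 were lost without WT clone 1, dKO clone 1 or dKO clone 3.

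The integrated stress response, in which phosphorylation of eIF2 alpha favours translation of ATF4, gave calls in both directions. Of 15 genes tested 3 were higher and 1 was lower, against 8.28% and 6.64% of all genes, with a median of -0.07. With the same summed FPKM 1 was higher and 3 were lower, and with voom 2 were higher and 5 lower. Atf5 was at 11.1 and 11.6 FPKM in the GLUT1/3 WT clones and 33.4 and 24.7 in the dKO clones (1.27 ± 0.20 (SE), adjusted p = 0.00954). Atf4 was at 106 and 111 FPKM in the GLUT1/3 WT clones and 134 and 133 in the dKO clones (0.30 ± 0.08 (SE), adjusted p = 0.04400), a call that was lost with the same summed FPKM and with voom. Eif2ak2, the kinase PKR and itself an interferon-induced gene, was higher (0.43 ± 0.11 (SE), adjusted p = 0.0431), and Sqstm1, an autophagy receptor, was lower (81.5 and 85.6 against 52.6 and 43.9 FPKM, -0.79 ± 0.11 (SE), adjusted p = 0.00672). Ddit3, the factor CHOP, did not pass (-0.36, adjusted p = 0.138). Aminoacyl-tRNA synthetases, many of which ATF4 can induce, gave 1 higher and 3 lower calls among 21, all of them lost when any 1 of the 4 Jak2WT libraries was left out. Without WT clone 1, WT clone 3, dKO clone 1 and dKO clone 3, the higher calls of the stress response list numbered 0, 0, 0 and 1.

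Genes of the unfolded protein response of the endoplasmic reticulum were higher in the dKO clones. They encode chaperones, disulfide isomerases and degradation factors that fold glycoproteins or dispose of them, and are induced by ATF6 and XBP1 when unfolded protein accumulates. Of 22 listed, 21 were tested, 16 were called higher and 0 lower against 8.28% and 6.64% among all genes, and the median log2 difference was 1.00. Both dKO clones lay above both WT clones in 20 of the 21, against 34.4% of all genes, and without WT clone 1, WT clone 3, dKO clone 1 and dKO clone 3 the higher calls numbered 15, 15, 15 and 15. Creld2, a small disulfide isomerase, rose most, with 32.2 and 32.8 FPKM in the GLUT1/3 WT clones and 93.7 and 109.6 in the dKO clones (1.61 ± 0.12 (SE), adjusted p = 0.000961). Hspa5, the chaperone BiP that holds the stress sensors inactive, was at 238 and 247 FPKM in the GLUT1/3 WT clones and 649 and 629 in the dKO clones (1.40 ± 0.11 (SE), adjusted p = 0.00142), a 2.64-fold higher mean. Pdia4, a disulfide isomerase, was at 73.8 and 80.4 FPKM in the GLUT1/3 WT clones and 219 and 203 in the dKO clones (1.44 ± 0.11 (SE), adjusted p = 0.00108). Manf, a secreted folding factor, was at 41.8 and 43.97 FPKM in the GLUT1/3 WT clones and 107 and 112 in the dKO clones (1.34 ± 0.10 (SE), adjusted p = 0.00114). Sdf2l1, a cofactor of BiP, was at 62.7 and 72.5 FPKM in the GLUT1/3 WT clones and 159.8 and 177 in the dKO clones (1.31 ± 0.11 (SE), adjusted p = 0.00154). Calr, the glycoprotein chaperone calreticulin, was the most abundant member, with 459.9 and 527 FPKM in the GLUT1/3 WT clones and 1003 and 1139 in the dKO clones (1.12 ± 0.13 (SE), adjusted p = 0.00497).

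Members of this list that act in degradation were also among those called higher. Herpud1, part of the machinery that exports misfolded protein for degradation, was at 24.7 and 26.5 FPKM in the GLUT1/3 WT clones and 62.5 and 59.8 in the dKO clones (1.23 ± 0.08 (SE), adjusted p = 0.000695). Edem1, which removes mannose from glycoproteins that fail to fold, was at 18.01 and 17.8 FPKM in the GLUT1/3 WT clones and 33.5 and 32.4 in the dKO clones (0.84 ± 0.07 (SE), adjusted p = 0.00173). Sel1l was at 14.3 and 15.1 FPKM in the GLUT1/3 WT clones and 21.8 and 22.1 in the dKO clones (0.55 ± 0.08 (SE), adjusted p = 0.00780). Of the co-chaperones of BiP, Dnajc3 was at 26.6 and 26.9 FPKM in the GLUT1/3 WT clones and 55.5 and 56.8 in the dKO clones and Dnajb9 at 13.1 and 12.01 FPKM in the GLUT1/3 WT clones and 30.2 and 22.6 in the dKO clones. Hyou1, Pdia6, Hsp90b1, Pdia3 and Dnajb11 completed the called members, with log2 differences from 0.96 for Dnajb11 to 1.15 for Hyou1. The sensors and their factor did not pass. Atf6 was at 9.74 and 9.93 against 10.3 and 10.3 FPKM (0.07, adjusted p = 0.663), Ern1, which encodes the sensor IRE1, at 17.1 and 13.8 against 11.7 and 13.5 FPKM (-0.27, adjusted p = 0.317), and Xbp1 at 68.3 and 79.96 against 92.1 and 93.5 FPKM (0.32, adjusted p = 0.0898). FPKM per gene does not show the splicing of Xbp1 by which IRE1 activates it.

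**Figure D3:**
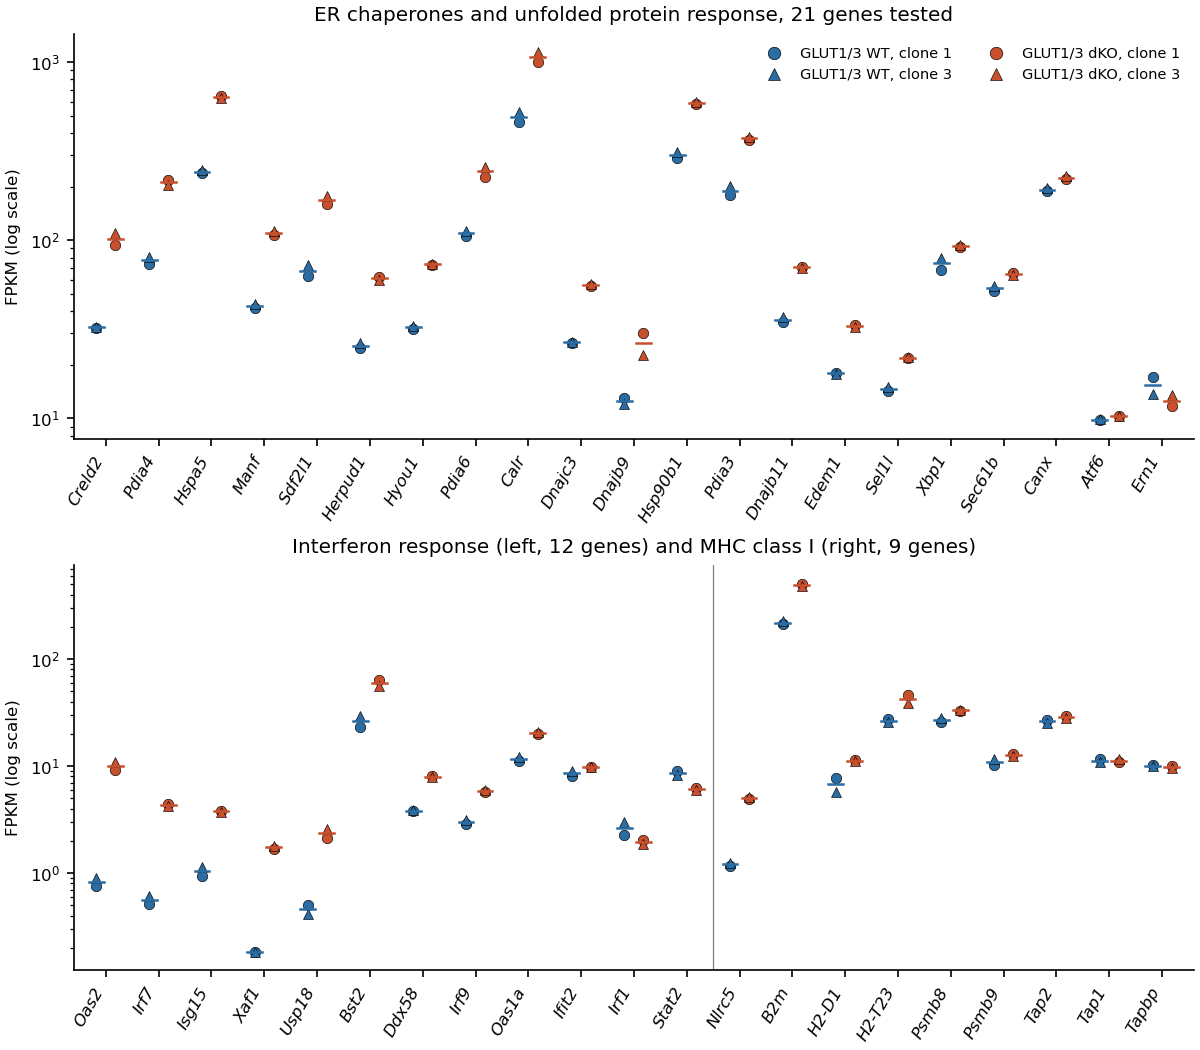
FPKM on a log scale in the 2 GLUT1/3 WT clones (blue) and the 2 dKO clones (red) of the Jak2WT background for 21 endoplasmic reticulum genes (top), 12 interferon response genes and 9 genes of MHC class I presentation (bottom), each ordered by log2 difference. Circles are clone 1, triangles clone 3 and bars the mean of both. Hspa5 moved from 238 to 247 FPKM up to 629 to 649 FPKM, and the sensors Atf6 and Ern1, which did not pass, stand last in the top panel.

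The endoplasmic reticulum stress element, CCAAT followed after any 9 bases by CCACG, on either strand, was found in 39 (0.119%) of all 32851 promoter windows. Of the 21 genes tested 18 had a window, and 7 of their 18 windows (38.9%) held it, those of Calr, Canx, Creld2, Dnajc3, Hsp90b1, Hspa5 and Pdia6. Canx, the membrane-bound partner of Calr, was the member of these 7 that did not pass (0.22, adjusted p = 0.133). The 200 bases before the start of Hspa5, chr2:34771890-34772089 on the forward strand, and of Creld2, chr15:88819446-88819645 on the forward strand, are shown because these genes combine large differences with this element, in capitals. In Creld2 it lies on the opposite strand. The list gathers known genes of this response, so its share of windows is not a result of these data.
Hspa5: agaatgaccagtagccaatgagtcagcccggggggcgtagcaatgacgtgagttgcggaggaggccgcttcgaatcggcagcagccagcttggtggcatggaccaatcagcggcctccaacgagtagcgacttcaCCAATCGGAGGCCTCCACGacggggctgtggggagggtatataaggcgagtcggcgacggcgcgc
Creld2: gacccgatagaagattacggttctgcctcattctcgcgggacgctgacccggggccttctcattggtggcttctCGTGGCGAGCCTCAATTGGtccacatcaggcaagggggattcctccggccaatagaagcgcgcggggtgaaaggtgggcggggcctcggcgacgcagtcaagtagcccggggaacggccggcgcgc

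Ribosome biogenesis genes, whose products process ribosomal RNA in the nucleolus, were higher. Of 24 tested, 14 were called higher and 0 lower, against 8.28% and 6.64% of all genes, with a median log2 difference of 0.39. Rrs1 was at 33.2 and 37.9 FPKM in the GLUT1/3 WT clones and 66.3 and 64.2 in the dKO clones (0.86 ± 0.10 (SE), adjusted p = 0.00492). Gnl3, the GTPase nucleostemin, was at 32.4 and 34.1 FPKM in the GLUT1/3 WT clones and 54.4 and 57.2 in the dKO clones (0.73 ± 0.08 (SE), adjusted p = 0.00324), and both were called under all 19 alternatives. Dkc1, which modifies ribosomal RNA, was at 61.5 and 68.9 against 108 and 104 FPKM (0.70 ± 0.09 (SE), adjusted p = 0.00673), and Nop56, of the box C/D particles, at 78.9 and 83.4 against 124 and 135 FPKM (0.67 ± 0.09 (SE), adjusted p = 0.00642). Polr1a, the large subunit of RNA polymerase I, rose less (0.40 ± 0.09 (SE), adjusted p = 0.0256). The differences were small beside those of the chaperones, and without WT clone 1, WT clone 3, dKO clone 1 and dKO clone 3 the calls numbered 2, 4, 4 and 4. Myc, which drives many of these genes, was at 101 and 105 FPKM in the GLUT1/3 WT clones and 122 and 125 in the dKO clones and did not pass (0.25, adjusted p = 0.1201). Mycn (70.2 and 60.9 against 43.04 and 42.7 FPKM, -0.60 ± 0.14 (SE), adjusted p = 0.0296) and Mxi1, a Myc antagonist and HIF-1 target (16.7 and 15.5 against 8.65 and 9.09 FPKM, -0.79 ± 0.09 (SE), adjusted p = 0.00395), were lower, and Mycn lost its call when any 1 of the 4 Jak2WT libraries was left out.

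Interferon-induced genes were higher in the dKO clones. Of 22 listed, 13 were tested, and 10 were called higher and 1 lower, against 8.28% and 6.64% of all genes. Because Oas2, Irf7, Xaf1 and Usp18 passed the filter through the dKO clones alone, the 9 genes present in both groups are the fairer base. Of these 9, 6 were higher and 1 lower, against 7.97% and 6.32% of all tested genes present in both groups. Their median was 0.76. Oas2, which makes the second messenger that activates RNase L, was at 0.749 and 0.894 FPKM in the GLUT1/3 WT clones and 9.0999 and 11.005 in the dKO clones. Irf7, a master regulator of interferon genes, was at 0.508 and 0.611 FPKM in the GLUT1/3 WT clones and 4.46 and 4.21 in the dKO clones. Isg15, a ubiquitin-like modifier, was at 0.934 and 1.15 FPKM in the GLUT1/3 WT clones and 3.83 and 3.72 in the dKO clones (1.23 ± 0.23 (SE), adjusted p = 0.0167). Bst2, the tether of budding virus, was at 23.2 and 29.3 FPKM in the GLUT1/3 WT clones and 64.2 and 56.1 in the dKO clones (1.17 ± 0.15 (SE), adjusted p = 0.00607). Ddx58, the RNA sensor RIG-I, was at 3.78 and 3.84 FPKM in the GLUT1/3 WT clones and 8.02 and 7.91 in the dKO clones (0.90 ± 0.15 (SE), adjusted p = 0.0122). Oas1a and Irf9 also rose, by 0.76 and 0.78. Stat2, part of the interferon-activated transcription complex, went the other way, with 9.08 and 8.23 FPKM in the GLUT1/3 WT clones and 6.23 and 5.99 in the dKO clones (-0.44 ± 0.08 (SE), adjusted p = 0.0149). Among the genes present in both groups Bst2 was called under all 19 alternatives, and every other call was lost when any 1 of the 4 Jak2WT libraries was left out.

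The core of the interferon-stimulated response element, GAAA followed after any 2 bases by GAAA, on either strand, was present in 3.44% of all promoter windows. Of the 13 interferon genes tested 10 had a window, and 5 of their 13 windows (38.5%) held the core, those of Bst2, Ddx58, Isg15, Oas1a and Stat2. Stat2 holds it although it was lower. As the list gathers known interferon genes, this share is not a result of these data. The 200 bases before the start of Isg15, chr4:156200819-156201018 on the reverse strand, are shown for their 3 overlapping cores in capitals.
Isg15: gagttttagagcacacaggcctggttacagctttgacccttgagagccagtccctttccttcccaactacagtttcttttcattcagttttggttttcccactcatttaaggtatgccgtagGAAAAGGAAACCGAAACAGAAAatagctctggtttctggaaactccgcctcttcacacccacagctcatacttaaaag

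In MHC class I presentation 4 of 9 genes were higher and 0 lower, against 8.28% and 6.64% of all genes. B2m, the invariant light chain, was at 210.1 and 228 FPKM in the GLUT1/3 WT clones and 506 and 477 in the dKO clones (1.16 ± 0.09 (SE), adjusted p = 0.00136). Nlrc5, the transactivator of class I genes, was at 1.17 and 1.24 FPKM in the GLUT1/3 WT clones and 4.87 and 5.08 in the dKO clones (1.44 ± 0.09 (SE), adjusted p = 0.000564). H2-D1 (7.74 and 5.699 against 11.4 and 11.1 FPKM, 0.68 ± 0.13 (SE), adjusted p = 0.0164) and H2-T23 (27.3 and 25.9 against 46.3 and 38.8 FPKM, 0.66 ± 0.12 (SE), adjusted p = 0.0149) rose less, and reads of class I heavy chains can be shared between near-identical genes. The peptide transporter genes Tap1 (-0.01, adjusted p = 0.9704) and Tap2 (0.14, adjusted p = 0.264) did not pass. The calls of B2m and Nlrc5 were kept under all 19 alternatives, and without WT clone 1, WT clone 3, dKO clone 1 and dKO clone 3 the list had 3, 2, 2 and 3 calls.

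Genes of mitosis were lower in part. Of 27 mitotic genes 11 were called lower and 0 higher, against 6.64% and 8.28% of all genes, with a median of -0.33, and 26 of the 27 differences were negative. Plk1, a kinase that drives entry into mitosis, was at 60.1 and 63.96 FPKM in the GLUT1/3 WT clones and 34.8 and 39.1 in the dKO clones (-0.73 ± 0.11 (SE), adjusted p = 0.00855). Mki67, the proliferation marker, was at 115 and 109 FPKM in the GLUT1/3 WT clones and 58.9 and 82.3 in the dKO clones (-0.67 ± 0.15 (SE), adjusted p = 0.0285). Aurka, a spindle kinase, was at 35.2 and 39.6 FPKM in the GLUT1/3 WT clones and 23.2 and 26.05 in the dKO clones (-0.58 ± 0.09 (SE), adjusted p = 0.00964), and Cdc25c, the phosphatase that activates CDK1, at 6.32 and 5.82 FPKM in the GLUT1/3 WT clones and 2.97 and 3.66 in the dKO clones (-0.72 ± 0.14 (SE), adjusted p = 0.01697). Bub1, Cenpf, Hmmr, Cdc20, Kif20a, Kif2c and Cdc25b also passed. There were 1, 0, 0 and 4 lower calls without WT clone 1, WT clone 3, dKO clone 1 and dKO clone 3. Of 40 DNA replication genes 1 was higher, Rfc5 (0.41), and 1 lower, Rpa3 (-0.37), with a median of 0.04 that became -0.06 with the same summed FPKM. Of 19 genes of homologous recombination and checkpoints Blm was called, as lower (-0.36, adjusted p = 0.0384). The calls of Rfc5, Rpa3 and Blm were lost when any 1 of the 4 Jak2WT libraries was left out, and those of Rfc5 and Blm also without a filter and with the clone block.

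Among regulators of the G1 phase 5 of 21 were lower and 0 higher, against 6.64% and 8.28% of all genes. Cdkn1b, the inhibitor p27, was at 54.1 and 47.5 FPKM in the GLUT1/3 WT clones and 22.4 and 23.2 in the dKO clones (-1.12 ± 0.13 (SE), adjusted p = 0.00492) and was called under all 19 alternatives. Rb1, the retinoblastoma protein (18.4 and 17.1 against 11.9 and 12.3 FPKM, -0.52 ± 0.13 (SE), adjusted p = 0.0368), its relative Rbl2 (8.96 and 8.14 against 5.18 and 5.65 FPKM, -0.57 ± 0.11 (SE), adjusted p = 0.0188) and the INK4 inhibitors Cdkn2d (-0.51 ± 0.13 (SE), adjusted p = 0.0368) and Cdkn2c (-0.46 ± 0.11 (SE), adjusted p = 0.0336) followed. When any 1 of the 4 Jak2WT libraries was left out, these calls were lost and Cdkn1b remained. Ccng2, a cyclin G that accumulates in resting cells, was one of the 10 most reduced called genes, with predicted models and pseudogenes left out. It was at 28.7 and 25.8 FPKM in the GLUT1/3 WT clones and 6.34 and 5.61 in the dKO clones (-2.02 ± 0.11 (SE), adjusted p = 0.000428).

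Of 18 p53 targets 5 were higher and 0 lower, against 8.28% and 6.64% of all genes. Zmat3 was at 3.68 and 3.604 against 7.91 and 7.41 FPKM (0.90 ± 0.12 (SE), adjusted p = 0.00678), Aen, a nuclease, at 6.08 and 6.29 against 12.02 and 9.84 FPKM (0.73 ± 0.12 (SE), adjusted p = 0.0113) and Tigar, which lowers fructose-2,6-bisphosphate, at 1.104 and 1.53 against 2.61 and 2.75 FPKM (0.67 ± 0.15 (SE), adjusted p = 0.0274), and Btg2 and Ccng1 were the others. Cdkn1a, the inhibitor p21, was at 53.9 and 53.3 FPKM in the GLUT1/3 WT clones and 56.6 and 50.7 in the dKO clones and did not pass. These calls numbered 0, 0, 0 and 2 without WT clone 1, WT clone 3, dKO clone 1 and dKO clone 3. Of 21 BCL2 family members and caspases 2 were higher, a share near the 8.28% of all genes, and 0 were lower. Bid, a BH3-only protein, was at 28.7 and 31.8 against 44.6 and 42.1 FPKM (0.51 ± 0.12 (SE), adjusted p = 0.0322). Fewer members of this list were higher when any 1 of the 4 Jak2WT libraries was left out.

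Jak2, which both groups carry as a transgene, did not pass. It was at 258 and 243 FPKM in the GLUT1/3 WT clones and 218 and 244 in the dKO clones (-0.12, adjusted p = 0.405). Of 13 STAT5 targets and feedback genes 2 were higher, Osm, a cytokine (6.07 and 4.95 against 14.2 and 10.8 FPKM, 1.04 ± 0.14 (SE), adjusted p = 0.00678), and Id1 (49.8 and 59.5 against 82.8 and 96.6 FPKM, 0.71 ± 0.14 (SE), adjusted p = 0.0209), and 0 lower, against 8.28% and 6.64% of all genes. Without WT clone 1, WT clone 3, dKO clone 1 and dKO clone 3 the higher calls numbered 1, 0, 1 and 1. Cish, a feedback inhibitor, was at 18.7 and 18.8 FPKM in the GLUT1/3 WT clones and 27.1 and 23.2 in the dKO clones and missed the threshold (0.40, adjusted p = 0.0692). Immediate early genes and MAP kinase feedback genes gave 6 higher and 1 lower call among 15, against 8.28% and 6.64% of all genes. Dusp2 was at 1.46 and 1.35 against 3.78 and 4.23 FPKM (1.05 ± 0.10 (SE), adjusted p = 0.00312), and Egr2, Dusp5, Ier2, Dusp6 and Dusp4 rose by 0.39 to 0.88, whereas Jun was lower (3.79 and 2.78 against 1.97 and 1.196 FPKM, -0.74 ± 0.17 (SE), adjusted p = 0.0295). The call of Jun was lost without WT clone 1, WT clone 3 or dKO clone 3, without a filter and with the 4 Jak2WT libraries fitted alone. Higher calls of this list numbered 1, 1, 1 and 1 without WT clone 1, WT clone 3, dKO clone 1 and dKO clone 3. In the antioxidant list Nqo1 (5.53 and 5.27 against 10.6 and 12.99 FPKM, 1.00 ± 0.16 (SE), adjusted p = 0.0109), Gpx1 (7.34 and 7.28 against 12.997 and 12.7 FPKM, 0.74 ± 0.08 (SE), adjusted p = 0.00438) and Gclc (0.38) were higher, and Hmox1, heme oxygenase, was lower (43.2 and 42.9 against 24.4 and 20.4 FPKM, -0.92 ± 0.12 (SE), adjusted p = 0.00607). The higher calls of the 19 antioxidant genes numbered 1, 1, 2 and 1 with the same libraries left out. In autophagy and lysosome genes 4 of 25 were lower, Sqstm1, Wipi1, Ulk1 and Tfe3, and 1 higher, Lamp1, against 6.64% and 8.28% of all genes. With the same libraries left out the lower calls numbered 1, 0, 1 and 2, and that of Lamp1 was lost each time.

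The largest differences of the whole comparison lay partly outside these lists. Hbb-bs, adult beta globin, was at 0.0329 and 0.0751 FPKM in the GLUT1/3 WT clones and 21.97 and 15.9 in the dKO clones, and as the WT clones held next to no reads its size is not given as a fold. Serpinb1a, an inhibitor of granule proteases, was at 7.24 and 4.83 FPKM in the GLUT1/3 WT clones and 110.2 and 65.96 in the dKO clones (3.64 ± 0.67 (SE), adjusted p = 0.01498), with dKO clones that differed from each other. Ccl9, a chemokine, was at 3.65 and 3.69 FPKM in the GLUT1/3 WT clones and 38.1 and 43.3 in the dKO clones (3.16 ± 0.60 (SE), adjusted p = 0.01700). Tspoap1 was at 1.21 and 1.01 FPKM in the GLUT1/3 WT clones and 14.9 and 12.9 in the dKO clones (2.82 ± 0.25 (SE), adjusted p = 0.00209). The neighbouring receptor genes Lilrb4a (1.04 and 0.364 against 9.24 and 5.52 FPKM) and Lilrb4b (0.775 and 0.318 against 8.37 and 5.05 FPKM) rose together and share much of their sequence. Tcam1 (0.0673 and 0.0768 against 3.67 and 4.58 FPKM) and Actg2, a smooth muscle actin (0.0973 and 0 against 3.31 and 4.22 FPKM), were close to 0 in the WT clones. Hbb-bs, Lilrb4b, Tcam1 and Actg2 passed the filter through the dKO clones alone, so their differences are a description.

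At the lower end Thbs1, the matrix protein thrombospondin 1, was at 14.1 and 5.13 FPKM in the GLUT1/3 WT clones and 0.352 and 0.164 in the dKO clones, and the WT clones differed from each other. The T cell receptor beta variable segments Trbv13-2 (54.5 and 60.5 against 12.05 and 7.34 FPKM, -2.49 ± 0.23 (SE), adjusted p = 0.00234) and Trbv12-2 (10.3 and 8.23 against 1.55 and 0.474 FPKM, -2.40 ± 0.25 (SE), adjusted p = 0.00324) were lower, while T cell markers were at or near 0 in all 4 libraries, with a sum of 0.190 to 1.01 FPKM over the 8 markers. Arnt2, a relative of the HIF-1 partner Arnt, was at 4.23 and 2.77 against 0 and 0.182 FPKM. Epx, eosinophil peroxidase, was at 41.05 and 28.4 FPKM in the GLUT1/3 WT clones and 8.49 and 6.98 in the dKO clones (-2.01 ± 0.20 (SE), adjusted p = 0.00321). Olfm3 was at 1.601 and 5.49 against 0.163 and 0.0329 FPKM, with unequal WT clones. Thbs1, Arnt2 and Olfm3 passed the filter through the WT clones alone, where they are high, and their differences are likewise a description. Of the genes that passed the filter in both groups Serpinb1a, Ccl9 and Lilrb4a lost their call under at least 1 alternative, and Slc2a1, Txnip, Ankrd37, Ass1, Ccng2, Tspoap1, Epx, Trbv13-2 and Trbv12-2 did not.

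**Figure D4:**
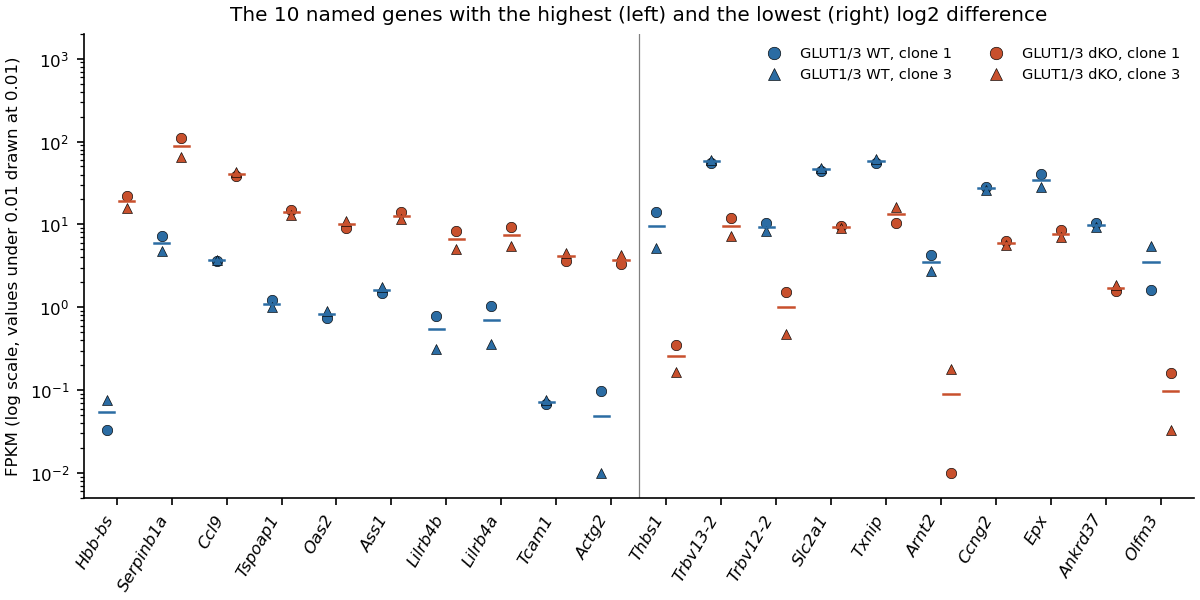
FPKM on a log scale of the 10 named genes with the highest and the 10 with the lowest log2 difference, in the 2 GLUT1/3 WT clones (blue) and the 2 dKO clones (red) of the Jak2WT background. They were ranked among called genes whose clones did not overlap, with predicted models and pseudogenes left out. Circles are clone 1, triangles clone 3 and bars the mean of both, and values under 0.01 are drawn at 0.01. Clones of a group lie close together for Ass1, Slc2a1 and Ankrd37 and apart for Serpinb1a, Thbs1 and Olfm3.

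Lineage markers moved in several directions. For the counts below, 8.28% of all genes were called higher and 6.64% lower. In bulk RNA, fewer cells of a kind and less RNA per cell cannot be told apart. Of 15 erythroid markers 8 were tested, and Hba-a1 (46.7 and 66.3 against 177 and 224 FPKM, 1.82 ± 0.36 (SE), adjusted p = 0.0197) and Rhag (6.18 and 10.3 against 31.4 and 30.7 FPKM, 1.83 ± 0.19 (SE), adjusted p = 0.00321) were higher beside Hbb-bs. The call of Hba-a1 was lost without a filter and when any 1 of the 4 Jak2WT libraries was left out, and that of Rhag was kept. The factors of the lineage, Gata1 (30.9 and 28.8 against 24.9 and 28.2 FPKM) and Klf1 (12.4 and 12.4 against 13.3 and 15.4 FPKM), did not pass. The summed level of the erythroid list, which includes Hba-a1, was 282 and 301 FPKM in the WT and 454 and 479.9 FPKM in the dKO clones. Car1 and Car2 were at 0 in all 4. Of the 8 tested erythroid markers 5 differences were positive and 3 negative, these 3 with both dKO clones below both WT clones. The 6 present in both groups had a median log2 difference of 0.05. Of 4 tested megakaryocyte genes Itga2b (62.2 and 61.3 against 80.4 and 87.003 FPKM), Gp9 (1.46 and 1.897 against 4.01 and 3.18 FPKM) and Gp1ba (2.01 and 1.76 against 4.12 and 4.02 FPKM) were higher, whereas the platelet genes Pf4 and Ppbp stayed at or below 0.776 FPKM. Of 4 tested primary granule genes Srgn, the granule proteoglycan serglycin (105 and 98.2 against 148 and 134 FPKM, 0.46 ± 0.12 (SE), adjusted p = 0.0414), and Serpinb1a were higher. Of 8 tested late granule genes 4 had positive and 4 negative differences, and Mmp9, a matrix protease, which passed the filter through the dKO clones alone, was at 0.521 and 0.684 against 1.74 and 1.36 FPKM. Within this list S100a9 (88.8 and 38.3 against 56.8 and 31.4 FPKM) and Ngp (88.1 and 30.9 against 39.1 and 26.5 FPKM) were spread more between clones 1 and 3 than between the groups. Cd68 was the higher of 3 monocyte genes (9.44 and 6.51 against 13.3 and 16.1 FPKM), with Csf1r below the filter, and Runx1 the lower of 4 stem and progenitor genes (10.5 and 10.1 against 6.67 and 6.32 FPKM, -0.59 ± 0.09 (SE), adjusted p = 0.00866). The calls of Srgn, Serpinb1a, Cd68 and Runx1 were lost when any 1 of the 4 Jak2WT libraries was left out, and the megakaryocyte calls then numbered 0, 1, 0 and 1 in the order used above. Of the mast cell markers Cpa3 and Gata2 were tested and neither passed. The part of these shifts in other results was not tested.

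To determine where this response differed from that of Jak2V617F cells, the difference between the dKO effects in both backgrounds was tested for the same 11202 genes. These contrasts share no library. It passed for 1267 genes (11.3%), of which 834 had opposite signs in the backgrounds, 360 had the same sign with the larger size in Jak2V617F and 73 the same sign with the larger size in Jak2WT. Among the 1672 genes called in Jak2WT, 425 passed this test. Without Jak2WT GLUT1/3 WT clone 1, WT clone 3, dKO clone 1 and dKO clone 3 it called 123, 68, 133 and 592 genes, without Jak2V617F GLUT1/3 WT clones 1 and 3 419 and 819, and with voom 1927.

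Of the DNA replication genes 34 of 40 passed the test of the difference, all 34 with the lower value in Jak2WT, against 11.3% of all genes. Without Jak2WT GLUT1/3 WT clone 1, WT clone 3, dKO clone 1 and dKO clone 3 the count was 11, 5, 9 and 27. The median dKO effect was 0.04 in Jak2WT and 1.02 in Jak2V617F. For Cdc6, which loads the replicative helicase, it was 0.60 in Jak2WT (10.7 and 10.5 against 15.1 and 18.3 FPKM) and 2.17 in Jak2V617F, a difference of -1.57 ± 0.26 (SE), adjusted p = 0.0162 that no longer passed without Jak2WT WT clone 1, WT clone 3 or dKO clone 1 and without a filter. Mitotic genes, 15 of 27, and homologous recombination genes, 14 of 19, also passed, with medians of -0.33 and -0.03 in Jak2WT against 0.26 and 0.75 in Jak2V617F. With the same libraries left out these counts were 1, 0, 1 and 7 for mitosis and 3, 2, 4 and 12 for homologous recombination. Mki67 fell in Jak2WT and had an effect of 0.63 in Jak2V617F (difference -1.30 ± 0.22 (SE), adjusted p = 0.0168), which no longer passed without Jak2WT WT clone 1, Jak2WT WT clone 3 or Jak2V617F WT clone 1 and without a filter. By contrast 3 of 21 endoplasmic reticulum genes passed, with medians of 1.00 and 0.94. The 3 were Herpud1 (1.05), Dnajb9 (1.33) and Sdf2l1 (-0.75), and without the 4 Jak2WT libraries in the same order 2, 1, 2 and 2 passed.

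**Figure D5:**
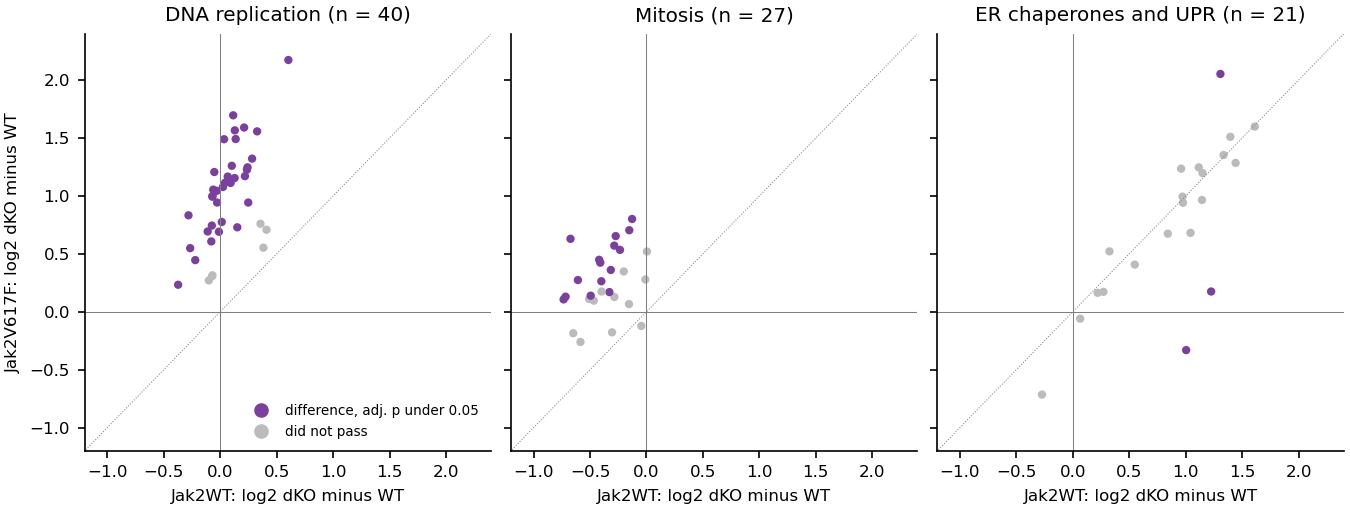
Log2 difference between dKO and WT clones in Jak2WT (horizontal) and Jak2V617F cells (vertical) for each tested gene of 3 lists, where the dotted line marks equal effects and purple points passed the test of the difference. DNA replication genes lie around 0 horizontally and above 0 vertically, 26 of the 27 mitotic genes left of 0, and most endoplasmic reticulum genes near the line.

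Glycolytic enzymes had a median effect of -0.53 in Jak2WT and -1.17 in Jak2V617F, and 5 of 16 passed the test of the difference, Pfkl (0.89), Hk2 (0.71), Gpi1 (0.72), Pgam1 (0.87) and Aldoa (0.85), all with the smaller size in Jak2WT. This count was 0, 0, 0 and 2, and the following one for HIF-1 targets 1, 0, 2 and 8, without the 4 Jak2WT libraries in the same order. HIF-1 targets outside glycolysis had medians of -0.70 and -1.27, and 8 of 23 passed, 7 of them with a positive difference, such as Egln1 at 1.31 ± 0.20 (SE), adjusted p = 0.01398, and Narf with a negative one (-0.94 ± 0.15 (SE), adjusted p = 0.0146). Slc2a1 was not shown to differ (-0.30 ± 0.21 (SE), adjusted p = 0.362), nor was Slc2a3 (0.68 ± 0.69 (SE), adjusted p = 0.546). Txnip fell further in Jak2WT, where its WT clones were higher, with 24.6 and 29.2 FPKM in the WT and 17.6 and 17.9 FPKM in the dKO clones of Jak2V617F (difference -1.51 ± 0.27 (SE), adjusted p = 0.0179). This difference no longer passed without Jak2WT WT clone 1, Jak2WT WT clone 3 or Jak2V617F WT clone 1 and without a filter. Of the integrated stress response genes 6 of 15 and of the amino acid transporters 5 of 15 passed, all with a positive difference, against 11.3% of all genes. Without the 4 Jak2WT libraries in the same order these counts were 4, 1, 4 and 5 for stress genes and 3, 3, 3 and 4 for transporters. Atf4 was raised in Jak2WT and had an effect of -0.69 in Jak2V617F (difference 0.98 ± 0.11 (SE), adjusted p = 0.00789), Atf5 had -0.86 there (difference 2.12 ± 0.28 (SE), adjusted p = 0.0106), and Slc38a2 -0.82 (difference 1.42 ± 0.16 (SE), adjusted p = 0.00789). B2m rose in Jak2WT and had -0.19 in Jak2V617F (difference 1.36 ± 0.13 (SE), adjusted p = 0.00789). The differences of Atf4, Slc38a2 and B2m passed under all 18 alternatives that include both backgrounds, and that of Atf5 failed without WT clone 3.

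The largest differences between the backgrounds included genes that one background hardly expressed. Xdh, xanthine dehydrogenase, passed the filter through the dKO clones alone and was at 0.228 and 0.101 against 1.94 and 1.41 FPKM in Jak2WT, while Jak2V617F cells had 11.2 and 14.7 FPKM in the WT and 0.916 and 1.99 FPKM in the dKO clones (difference 3.73, a description). Wwox (1.85 and 1.63 against 1.59 and 1.59 FPKM) and Anxa1, annexin A1 (29.5 and 17.9 against 17.8 and 10.2 FPKM), did not pass in Jak2WT and had effects of -3.35 and -3.30 in Jak2V617F (differences 3.27 and 2.57). Slc22a3, an organic cation transporter, likewise did not pass in Jak2WT (0.73, adjusted p = 0.274). The difference of Anxa1 no longer passed without Jak2WT WT clone 3, Jak2WT dKO clone 1 or Jak2V617F WT clone 1 and without a filter. In the other direction Prg2, the eosinophil major basic protein, was at 89.4 and 62.7 against 28.7 and 18.4 FPKM in Jak2WT (-1.66 ± 0.43 (SE), adjusted p = 0.0413), with 0.334 and 1.401 FPKM in the WT and 4.91 and 12.2 FPKM in the dKO clones of Jak2V617F. Its call in Jak2WT was lost when any 1 of the 4 Jak2WT libraries was left out, with a pseudocount of 0.1, without a filter, with robust variance estimates and with the clone block. The difference of Prg2 between backgrounds no longer passed without Jak2WT WT clone 1 or WT clone 3 and without a filter. Epx, Thbs1, Trbv13-2 and Trbv12-2 stayed at or below 0.768 FPKM in all Jak2V617F libraries. Tspoap1 had a smaller effect in Jak2V617F (0.25, difference 2.57 ± 0.36 (SE), adjusted p = 0.0121), and this difference no longer passed without Jak2WT WT clone 3 or dKO clone 1 and without a filter. That of Slc22a3 passed under 7 of the 18 alternatives.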

How the data were processed

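The authors deposited 1 table with FPKM values per gene in 8 libraries. The submitters' processing notes name featureCounts 2.0.6, HISAT2 2.2.1, fastp 1.0.1 and the build mm39. The annotation version, the strand setting and the total behind the FPKM are not given in the sources used here. Since FPKM scales each library to its own total, a change in a few abundant genes shifts all others. Genes that reached 1 FPKM in 2 or more of the 4 Jak2WT libraries were compared on log2(FPKM + 1) with limma 3.58.1 (R 4.3.3), in a fit with 4 group means, a trend of the variance with expression and Benjamini-Hochberg adjustment over 11202 genes at 0.05. The Jak2V617F libraries shared the estimate of the spread and gave the difference between backgrounds. Reads per gene were recovered from FPKM and gene length, within a tolerance of 0.01 of a whole read, for depth and for limma voom.

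Alternatives comprised the pseudocount, filters, scalings, voom, a fit on 4 libraries, a clone block and the omission of each library. Genes named were Slc2a1, Slc2a3, list members, the 10 highest and 10 lowest log2 differences and the 5 largest differences between backgrounds in each direction, the last 2 kinds among called genes whose clones did not overlap and which are neither predicted models nor pseudogenes. Members and lists were chosen with earlier results of these data known. No per-sample column was left out, and 1 guide and some genes are not reported here. The scripts were tested on simulated data. Promoters came from RefSeq (GRCm38.p6), and the guides were matched to GRCm39. Figures were drawn with matplotlib.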

Additional observations from a re-analysis of the deposited data

Results flagged for a closer look

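Genes named above whose dKO effect differed between Jak2WT and Jak2V617F at an adjusted p under 0.05 (limma) are given with the effect in Jak2WT minus that in Jak2V617F on the log2 scale. Groups of 2 clones are too small to single out a sample within a group. Xdh, Actg2, Tcam1, Lilrb4b, Thbs1 and Arnt2 passed the filter through 1 Jak2WT group alone, where they are high, so their differences are a description. Of 77 genes on a list or named here whose difference passed, 14 passed under every alternative that tested them and 0 reversed.

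With effects of opposite sign, the one in Jak2WT was higher for Xdh (3.73), Slc22a3 (2.42), Rhag (2.34), Actg2 (2.34), Atf5 (2.12), mt-Atp8 (1.52), Slc38a2 (1.42), B2m (1.36) and Dnajb9 (1.33). The same held for Zmat3 (1.12), Tap2 (1.07), Atf4 (0.98), Slc7a1 (0.97), H2-D1 (0.91), Ctsc (0.87), Gpx1 (0.84), Gnl3 (0.84) and Ier2 (0.80). Further genes of this kind were Myc (0.72) and Lamp1 (0.71).

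With effects of opposite sign, the one in Jak2WT was lower for Cdc25b (-0.50), Slc2a8 (-0.60), Rpa3 (-0.61), Hmmr (-0.63), Srebf1 (-0.65), Kif2c (-0.66), Acss2 (-0.69), Stat2 (-0.77) and Plk1 (-0.84). Among cell cycle and other genes it was lower for Blm (-0.84), Cdc25c (-0.85), Kif20a (-0.87), Cdkn2c (-0.87), Cenpf (-0.88), Narf (-0.94), Cdkn2d (-0.998), Jun (-1.28) and Mki67 (-1.30). Larger differences of this kind were those of Arnt2 (-2.10), Epx (-2.56), Trbv12-2 (-2.68), Thbs1 (-2.98), Trbv13-2 (-3.05) and Prg2 (-3.96).

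With effects of the same sign, the larger size was that in Jak2V617F for Wwox (3.27), Anxa1 (2.57), Trgc1 (1.77), Egln1 (1.31), Gpt2 (1.06), Trgj1 (1.01), Bnip3 (0.99), Pfkl (0.89) and Pgam1 (0.87). It was also larger there for Hmox1 (0.85), Aldoa (0.85), Pdk1 (0.78), Plod1 (0.75), Gpi1 (0.72), Hk2 (0.71), Pgm1 (0.69), Tap1 (0.62) and Sdf2l1 (-0.75). Cdc6 was of this kind too (-1.57). The larger size was that in Jak2WT for Tspoap1 (2.57), Tcam1 (2.04), Lilrb4b (2.00), Herpud1 (1.05), Gp9 (0.73), Rrs1 (0.68), Ass1 (0.68), Dkc1 (0.54) and Nlrc5 (0.50). Gfpt1 (0.46) was of this kind, as was Txnip (-1.51).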

How the results depend on the processing

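Against 928 genes higher and 744 lower, no filter on low values (23633 genes tested) called 442 and 335, the same summed FPKM 720 and 1421, and limma voom on recovered reads 1035 and 1619. Of the calls, 55.5% were higher in the fit reported, 33.6% with the same summed FPKM and 39% with voom. Leaving out 1 library gave 139 to 1129 higher and 76 to 937 lower genes, with the counts under 250 all from the 4 Jak2WT libraries. The test of the difference between backgrounds called 365 genes without a filter and 1927 with voom against 1267, with 316 and 1055 shared, and 68 to 1264 when 1 library was left out. The log2 difference of Slc2a3 passed at -1.80 with the same summed FPKM and at -1.79 with voom, and ranged from -2.49 to -0.92 when 1 library was left out. The fit reported did not pair samples by clone number. Deviations of same-numbered clones correlated at -0.07 between the Jak2WT groups (range -0.27 to 0.16 over all pairs of groups). With 2 clones per group this cannot show whether same-numbered clones share an origin or handling. With the clone number as a replicate block, 788 genes were higher and 616 lower, and Slc2a1 kept its call. Reversals concerned genes that had not passed: Atf6 turned to -0.025 with the same summed FPKM, and when 1 library was left out the log2 differences ranged from -0.078 to 0.077 for Cdkn1a, -0.75 to 0.22 for Cpa3, -1.42 to 0.056 for Ngp, -1.05 to 0.14 for S100a9 and -0.049 to 0.037 for Tap1. Of 3741 pairs of a called gene and an alternative, 3036 kept the call, 705 lost it and 0 reversed. The causes of these changes were not tested. No called gene had overlapping clones, so a reversal was possible only with the same summed FPKM, median ratio scaling or voom. At 16846011 to 48884329 reads per library, clones sharing a genotype were further apart than counting error.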

Other observations

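Genes of the T cell receptor loci were transcribed in the 4 Jak2WT libraries although T cell markers were at or near 0. Trgc1, the constant segment of the gamma chain, was at 517 and 562 FPKM in the GLUT1/3 WT clones and 383 and 361 in the dKO clones (-0.53 ± 0.14 (SE), adjusted p = 0.0432), and the joining segment Trgj1 at 593 and 538 FPKM in the GLUT1/3 WT clones and 276 and 234 in the dKO clones (-1.15 ± 0.12 (SE), adjusted p = 0.00380). Together with Trbv13-2 and Trbv12-2 these segments were lower in the dKO clones, and near-identical segments can share reads. The call of Trgc1 was lost when any 1 of the 4 Jak2WT libraries was left out, without a filter, without the variance trend and with the clone block. Gzmb, granzyme B, was at 538 and 309 FPKM in the GLUT1/3 WT clones and 222 and 48.5 in the dKO clones, where the clones of a group differed widely, and did not pass (-1.96, adjusted p = 0.145). These 3 genes were chosen after their values were seen.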
